A study of Mus musculus with 54 samples.

Results

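The 321 genes described here are protein-coding genes that were low in sham-treated SmoA1 tumours of the mouse cerebellum and higher in SmoA1 tumours 5 h after 1 Gy of radiation. Each met 3 conditions on group means of CPM (a gene's read count divided by all reads counted in genes in that library and scaled to 1e6). The mean in sham-treated BL6 cerebellum was at least 20 CPM, the mean in sham-treated SmoA1 tumour was at most 0.4 of that, and the mean in SmoA1 tumour after 1 Gy was at least 2 times the SmoA1 sham mean. Of 21865 protein-coding genes, 13151 met the first condition, 505 also met the second and 332 met all 3. Prlr, Bmp2, Gad1, Slc6a5, Opalin, Lin28b and the Dnah genes were then left out by name, which took away 11 genes and left 321. The values that chose the genes are given below as description, with no test. The names lost and regained stand for the rule only.

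The series measured RNA of bulk tissue by sequencing after ribosomal RNA depletion. Normal cerebellum came from C57BL/6 mice (BL6), and the tumours came from mice with the strain label SmoA1 homo and from Ptc het mice with the strain label C57BL/6. Each tissue was taken at 5 h after 1 Gy or after sham treatment, which gives 6 groups of 3 libraries. Library numbers are those of the labels and appear below in the order 1, 2 and 3 for BL6 sham, 2, 3 and 4 for BL6 1 Gy, 1, 2 and 4 for SmoA1 sham, and 1, 2 and 3 for SmoA1 1 Gy and for both Ptc groups. The promoter that drives SmoA1, the age of the mice and whether each number is a separate animal are not given in the sources used here. Kdm5d, a Y chromosome gene, was at 169, 5.55 and 140 CPM in BL6 1 Gy and 4.28, 155 and 5.12 in SmoA1 sham. It was at 168, 8.3 and 5.51 CPM in SmoA1 1 Gy, 62.6, 0.029 and 0 in Ptc 1 Gy, and low throughout BL6 sham and Ptc sham. Those 4 groups thus mix sexes, and their numbers are not all 1 animal. Sex was not in the tests. P-values measure the spread between these samples, part of which may be technical.

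SmoA1 is an activated form of Smoothened, the membrane protein that passes on the hedgehog signal, and Ptc is Patched, the receptor that holds Smoothened in check. Tumours with such changes in mice resemble the dividing precursors of cerebellar granule neurons. Normal cerebellum also holds mature granule neurons, Purkinje cells, inhibitory interneurons, glia, vessels, and the choroid plexus and ciliated ependyma that line the ventricle. In bulk tissue, fewer cells of a type and less RNA per cell cannot be told apart.

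The BL6 and SmoA1 libraries each sum the 4 deposited files of 1 sample number, although the labels title these files biol rep 1 to 4. These libraries hold 540652 to 842997 reads in genes, so 1 read was worth 1.19 to 1.85 CPM. Between 45.8 and 76.1% of their reads were unmapped, 70.4 to 75% of the uniquely mapped reads lay in no gene, and reads fell on both strands about equally. The Ptc libraries hold 34124031 to 51330146 reads in genes and have 12.5 to 14.3% of uniquely mapped reads in no gene. Library type and genotype cannot be told apart for Ptc, so no Ptc library is tested against the other groups. Smo, read as a check of the labels, was at 35.0 to 42.5 CPM in the 6 BL6 libraries and at 71.6 to 93.8 CPM in the 6 SmoA1 libraries.

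Taken as a set, the 321 genes stood near the level of all other protein-coding genes summed together in normal cerebellum. They were far below it in sham-treated SmoA1 tumours and in between after 1 Gy. Their summed level per kilobase of exon was 9.56, 8.65 and 8.73 CPM in the BL6 sham libraries. It was 1.73, 1.85 and 1.38 CPM per kb in SmoA1 sham and 5.53, 5.78 and 4.11 CPM per kb in SmoA1 after 1 Gy. The libraries of these 3 groups do not overlap in this sum, but the rule chose the genes on these same values. All other protein-coding genes outside the lost set stood at 9.11 to 9.48 CPM per kb in the same 12 libraries, with the 3 SmoA1 sham libraries, at 9.35 to 9.48, highest by a small margin. The scale of these 12 libraries was narrow. Genes outside the lost set at 0.03 to 0.1 CPM per kb in Ptc sham stood at 2.99 to 5.24 CPM per kb in them, and genes at 30 to 100 CPM per kb in Ptc sham at 15.3 to 18.2 CPM per kb. The 321 genes in SmoA1 sham were thus below the first of these ranges, and in BL6 sham inside the span between both. After 1 Gy in SmoA1 they overlapped the first range. The genes of that first range were also higher after 1 Gy in SmoA1, at 4.32, 4.86 and 5.24 CPM per kb against 3.03, 3.68 and 3.04 after sham. In BL6 they were at 4.38, 4.17 and 2.99 CPM per kb after 1 Gy and 4.32, 3.66 and 3.32 after sham. The median of the 321 genes in Ptc sham, 0.142 CPM per kb, lay in the next range, 0.1 to 0.3. Genes outside the lost set in that range rose less in SmoA1, at 6.57, 6.87 and 7.13 CPM per kb after 1 Gy against 5.86, 6.29 and 5.08 after sham. Those at 0.3 to 1 CPM per kb in Ptc sham were at 8.38, 8.12 and 8.18 against 7.91, 7.69 and 7.04. In BL6 after 1 Gy, a group the rule did not use, the 321 genes were at 9.01, 9.32 and 6.90 CPM per kb, and the low value is library 4.

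**Figure D1:**
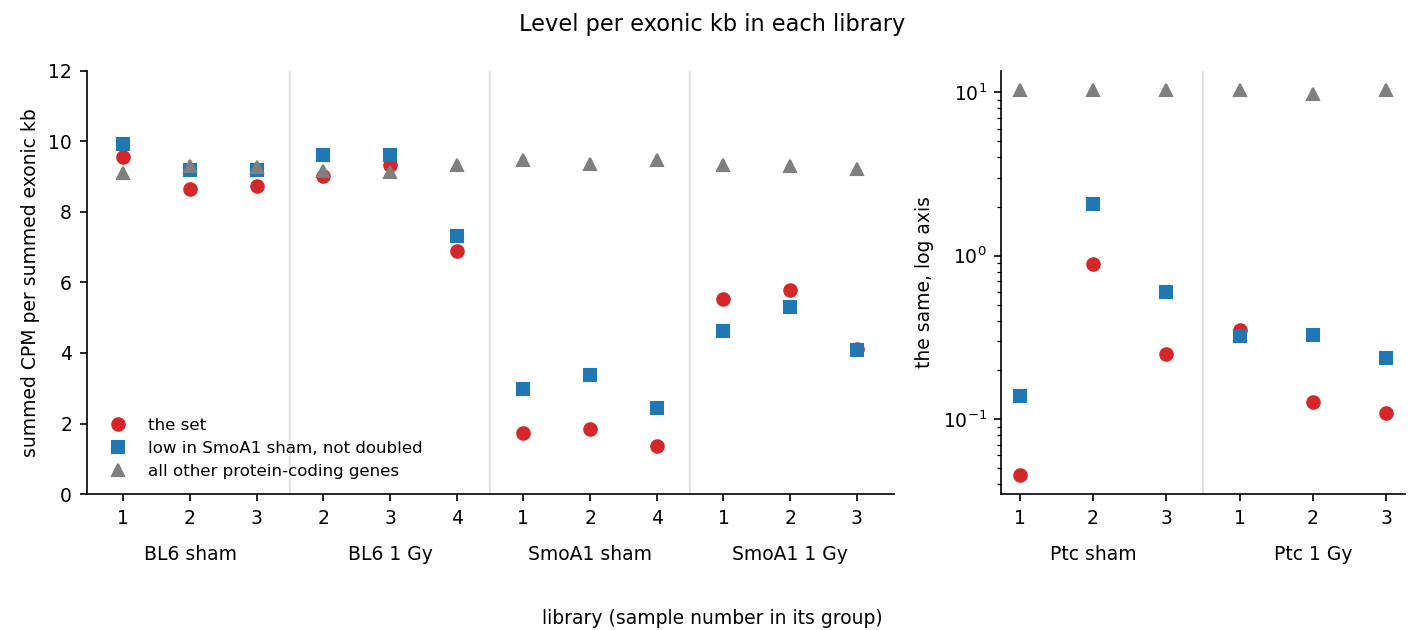
Summed CPM per summed kilobase of exon in each library, on a linear axis for the 12 BL6 and SmoA1 libraries and on a log axis for the 6 Ptc libraries, for the 321 genes, for the 172 genes that were low in SmoA1 sham but not doubled after 1 Gy (lost, not regained) and for the other protein-coding genes. The 321 genes lie at 1.38 to 1.85 in SmoA1 sham and at 4.11 to 5.78 in SmoA1 after 1 Gy. The other protein-coding genes, all summed together, stay at 9.11 to 9.48 in the BL6 and SmoA1 libraries.

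The median of the 321 genes was 37.5 CPM in BL6 sham, 34.3 in BL6 1 Gy, 6.08 in SmoA1 sham and 19.9 in SmoA1 1 Gy. By gene, the SmoA1 sham mean was a median 0.163 of the BL6 sham mean. The SmoA1 1 Gy mean was a median 3.12 times the SmoA1 sham mean over the 312 genes with any SmoA1 sham read. It came to a median 0.558 of the BL6 sham mean, and 18 genes exceeded it. Counts behind these ratios were small, since the 321 genes together held 1654 to 2366 reads in each SmoA1 sham library, and 117 genes held at most 10 reads over the 3 libraries together.

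In the 3 irradiated SmoA1 libraries, 223 of the 321 genes lay above every sham library, against 9.25% of all genes tested. Another 84 did so in 2 libraries and 14 in 1 library only. Library 3 was the lowest of the irradiated libraries for 174 genes, library 1 for 93 and library 2 for 54. All 3 BL6 sham libraries exceeded all 3 SmoA1 sham libraries for 314 genes, against 16.3% of all genes tested. With edgeR's quasi-likelihood test at an adjusted p under 0.05, 299 of the 300 genes tested were called lower in SmoA1 sham than in BL6 sham, against 9.4% of all genes. For 1 Gy against sham in SmoA1, 83 of the 164 genes tested were called higher, against 1.98% of all genes, and 80 genes were called in both contrasts. The 83 became 32 without irradiated SmoA1 library 2 and 39 without library 1. Both contrasts chose the genes, so nothing is read from these counts.

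Of the 15 genes called in both contrasts with the smallest p-values, 14 are described by role. Among transporters, Slc26a7, an anion exchanger of chloride and bicarbonate at chr4:14502430-14621805 on the minus strand of GRCm38, was at 67.3, 56.9 and 74.7 CPM in BL6 sham. It was at 4.28, 10.8 and 12.8 CPM in SmoA1 sham and at 59.6, 56.9 and 44.1 CPM after 1 Gy, that is 9.3 ± 4.46 against 53.6 ± 8.32 (SD, n = 3). Its irradiated SmoA1 libraries were all far above the sham libraries and overlapped the irradiated BL6 libraries, which were at 47.7, 57.3 and 64.5 CPM. Slc5a1, the sodium-coupled glucose transporter SGLT1, was at 28.3, 32.1 and 32.3 CPM in BL6 sham, 5.7, 4.81 and 0 CPM in SmoA1 sham and 59.6, 47.4 and 20.7 CPM in SmoA1 1 Gy. Its spread after 1 Gy was wide, at 42.6 ± 19.9 CPM (SD, n = 3), with libraries 1 and 2 above and library 3 below all 3 BL6 sham libraries.

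Genes of excitable membranes came next. Sv2c, a synaptic vesicle glycoprotein, was the most abundant of the 14 after 1 Gy, at 118, 98.5 and 97.8 CPM against 32.8, 54.1 and 30.7 CPM in SmoA1 sham. Those irradiated values overlap BL6, which was at 93.9, 118 and 100.2 CPM after sham and 95.4, 104 and 98.2 CPM after 1 Gy. Hcn4, a pacemaker channel opened by hyperpolarisation and cyclic nucleotides, was at 39.9, 16.8 and 15.4 CPM in SmoA1 sham and 88, 65.2 and 66.1 CPM in SmoA1 1 Gy. The sham libraries of Hcn4 were uneven, with library 1 more than 2 times the others, and the irradiated ones overlapped BL6 sham at 62, 74.4 and 83.2 CPM.

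Enzymes were a further kind. Gucy2e, a membrane guanylate cyclase best known from photoreceptors, was at 109.8, 93.4 and 110.4 CPM in BL6 sham, 29.9, 25.2 and 21.8 CPM in SmoA1 sham and 99.4, 68.8 and 59.2 CPM in SmoA1 1 Gy. Pla2g4e, a cytosolic phospholipase A2 that acts as an N-acyltransferase, was at 56.7, 87.5 and 69.6, then 18.5, 19.2 and 17.9 and then 65.3, 62.9 and 46.8 CPM in the same groups. Both were uneven in irradiated BL6, where library 4 was the lowest, at 63.1 CPM for Gucy2e and 50.5 CPM for Pla2g4e. Map3k19, a kinase of the MAP kinase cascade's upper tier, was at 4.28, 14.4 and 6.4 CPM in SmoA1 sham and at 65.3, 61.7 and 23.4 CPM after 1 Gy. Its irradiated library 3 stood well below the other irradiated libraries but still above every sham library.

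Genes of cell structure and adhesion were Ppl, Scin and Cdh1. Ppl, periplakin, which ties intermediate filaments to cell junctions, was at 77.9, 91.9 and 81.5 CPM in BL6 sham, 17.1, 9.62 and 12.8 CPM in SmoA1 sham and 68.2, 61.7 and 44.1 CPM in SmoA1 1 Gy. Scin, scinderin, an actin-severing protein that responds to calcium, was at 2.85, 4.81 and 3.84 CPM in SmoA1 sham and 39.8, 24.9 and 37.2 CPM after 1 Gy. Irradiated BL6 was at 25.4, 27.7 and 26.6 CPM of Scin, inside the range of the irradiated tumours, whereas the irradiated tumour values of Ppl lay below all BL6 values. Cdh1, E-cadherin of epithelial junctions, was nearly equal in the 3 sham tumours at 18.5, 18 and 17.9 CPM and was at 65.3, 45.1 and 45.4 CPM after 1 Gy, next to 44.3, 55.4 and 50.9 CPM in BL6 sham.

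Matrix genes were Tnn and Hapln1. Tnn, tenascin N, was near the floor in SmoA1 sham at 2.85, 2.4 and 1.28 CPM, or 1 to 2 reads a library, and was at 27, 21.4 and 23.4 CPM after 1 Gy. Hapln1, the link protein that fastens aggrecan to hyaluronan in perineuronal nets, was at 8.56, 12 and 6.4 and then 49.7, 48.6 and 28.9 CPM. Acan, the aggrecan core protein itself, met the rule only narrowly, at 23.5 CPM in SmoA1 sham and 47.3 CPM after 1 Gy, a ratio of 2.01.

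Vwa5b1 had the lowest ratio of SmoA1 sham to BL6 sham of the 14, 0.0389, at 95.2 ± 5.99 CPM in BL6 sham and 3.71 ± 4.08 CPM in SmoA1 sham (SD, n = 3). Its 3 irradiated libraries, at 32.7, 65.2 and 27.5 CPM, stayed below every BL6 library. Olfr1033, an olfactory receptor gene, was at 8.56, 2.4 and 3.84 CPM in SmoA1 sham and 34.1, 33.2 and 30.3 CPM in SmoA1 1 Gy. Every irradiated value of Olfr1033 exceeded its BL6 sham libraries, at 30.1, 24.8 and 25.5 CPM.

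**Figure D2:**
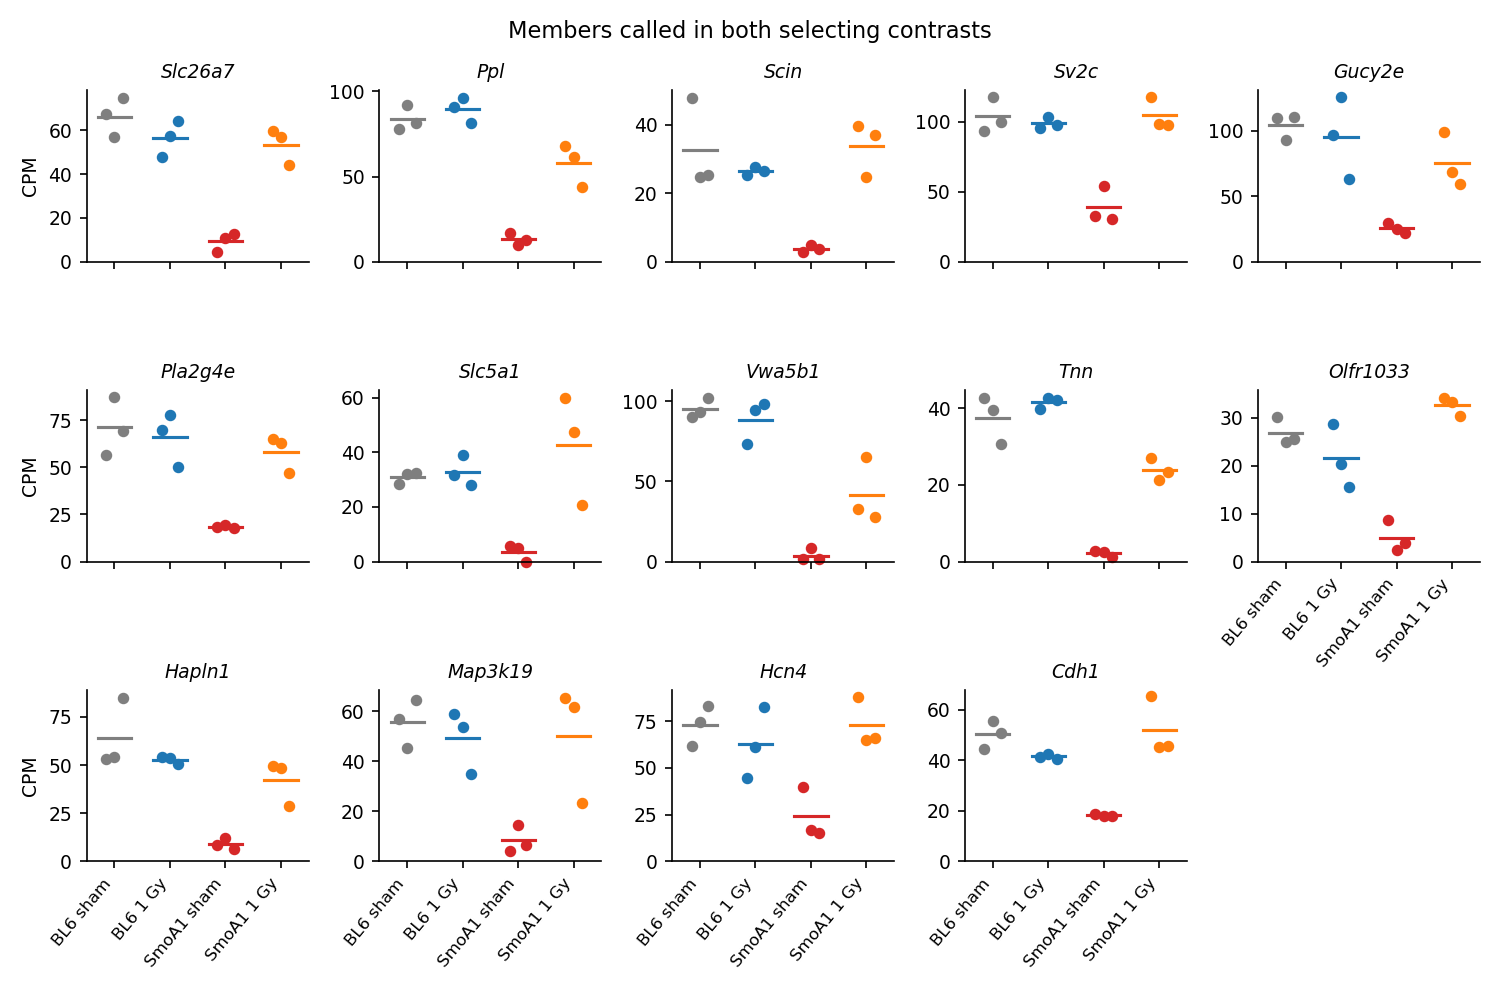
CPM of 14 genes called in both selecting contrasts, 1 panel a gene, with 1 point a library and a line at the mean of 3 libraries for BL6 sham, BL6 1 Gy, SmoA1 sham and SmoA1 1 Gy. In each panel the 3 SmoA1 sham points lie lowest, and Vwa5b1 stays below BL6 after 1 Gy while Sv2c reaches the BL6 range.

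Of the 5 genes most abundant in BL6 sham, 4 were only partly regained. Ryr3, a calcium release channel of the endoplasmic reticulum, was at 173 ± 16 CPM in BL6 sham, 54.7 ± 5.92 in SmoA1 sham and 116 ± 41.4 after 1 Gy (SD, n = 3). Cntnap5a, a cell adhesion protein of the neurexin superfamily, was at 2.85, 10.8 and 7.68 CPM in SmoA1 sham and 45.4, 58.1 and 16.5 CPM after 1 Gy, all below its BL6 sham libraries at 124, 129.8 and 143 CPM. Pgr, the progesterone receptor, was at 108, 139 and 112 CPM in BL6 sham, 18.5, 14.4 and 3.84 CPM in SmoA1 sham and 63.9, 59.3 and 16.5 CPM after 1 Gy. For Pgr, irradiated library 3 fell within the range of the sham libraries. Hecw1, a ubiquitin ligase, had its highest sham value at 72.7 CPM in library 1 and its lowest irradiated value at 66.1 CPM in library 3, so its groups overlapped. The fifth, Tmem72, rested on 1 irradiated library and is described with others of that kind below.

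The promoters of the first 4 of these genes with a RefSeq entry are shown as the sequences at the starts of members described above. Each runs from 250 bases before to 50 bases after the RefSeq start on GRCm38.p6, 5′ to 3′ on the strand of the gene, with CG pairs in capitals.
Scin, chr12:40134179-40134478, minus strand: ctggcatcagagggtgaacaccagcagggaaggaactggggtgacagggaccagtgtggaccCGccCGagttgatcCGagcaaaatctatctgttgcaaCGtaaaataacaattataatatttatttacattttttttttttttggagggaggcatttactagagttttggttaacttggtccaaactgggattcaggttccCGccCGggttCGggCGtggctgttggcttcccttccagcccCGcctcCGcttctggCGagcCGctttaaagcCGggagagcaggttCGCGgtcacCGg
Sv2c, chr13:96132528-96132827, minus strand: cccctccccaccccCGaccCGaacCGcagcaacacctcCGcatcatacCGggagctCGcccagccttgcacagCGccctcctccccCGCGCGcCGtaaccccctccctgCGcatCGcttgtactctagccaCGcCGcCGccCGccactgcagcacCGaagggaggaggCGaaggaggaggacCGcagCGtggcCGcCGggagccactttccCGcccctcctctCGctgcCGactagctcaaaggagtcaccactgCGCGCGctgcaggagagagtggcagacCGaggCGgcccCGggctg
Gucy2e, chr11:69236973-69237272, minus strand: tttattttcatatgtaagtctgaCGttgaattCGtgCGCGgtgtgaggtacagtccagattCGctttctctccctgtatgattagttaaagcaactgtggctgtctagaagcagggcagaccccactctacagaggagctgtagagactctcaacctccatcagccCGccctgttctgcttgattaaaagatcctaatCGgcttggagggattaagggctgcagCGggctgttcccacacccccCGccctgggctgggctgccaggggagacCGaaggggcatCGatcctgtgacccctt
Pla2g4e, chr2:120245286-120245585, minus strand: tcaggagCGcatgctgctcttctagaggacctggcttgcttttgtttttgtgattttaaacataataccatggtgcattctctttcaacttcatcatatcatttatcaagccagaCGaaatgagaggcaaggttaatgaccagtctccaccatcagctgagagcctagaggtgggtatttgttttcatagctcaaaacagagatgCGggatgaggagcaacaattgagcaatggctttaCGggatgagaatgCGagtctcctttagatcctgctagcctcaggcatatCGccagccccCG

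The promoters differ in base composition, with 32 CG pairs for Sv2c, 16 for Scin, 11 for Gucy2e and 7 for Pla2g4e. Both strands of each were searched for 6 short motifs, whose shares are given over 32817 mouse promoters of the same length. The cyclic AMP element, TGACGTCA, occurs in 1.79% of them and was found in none of the 4. An AP-1 site, written TGANTCA with any base as N, occurs in 7.81% and was not matched here either. The forkhead core GTAAACA has a share of 3.65% among all promoters, with no match in these. Pla2g4e alone held the E-box CAGCTG, which occurs in 16.3% of all promoters. No TATA box, TATAAA with a share of 13.6%, was found in the 4 promoters. The partial X-box known from genes of cilia, GTTGCCA, has a share of 4.38% and was absent as well. A RefSeq promoter was found for 231 of the 321 genes (72.0%), and composition over the set is not compared.

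Receptors for monoamines and peptides, membrane proteins that answer serotonin, dopamine, orexin and opioid signals, were a frequent kind of member. Of 36 such genes at 20 CPM or more in BL6 sham, 12 were members, next to 2.44% of all 13151 protein-coding genes at that level. They are the serotonin receptors Htr1b, Htr2c, Htr5a and Htr7, the dopamine receptor Drd2, the adrenergic receptor Adra2b, the orexin receptors Hcrtr1 and Hcrtr2, the opioid receptors Oprd1 and Oprk1, the neuropeptide Y receptor Npy1r and the cholecystokinin receptor Cckbr. Their summed level was 542, 528 and 382 CPM in BL6 sham, 104, 96.2 and 42.3 CPM in SmoA1 sham and 283, 293 and 285 CPM in SmoA1 1 Gy. The 3 groups do not overlap. Of the 12 genes, 9 were above every sham library in all 3 irradiated SmoA1 libraries, beside 223 of all 321 and 9.25% of all genes tested, and the rule used these values.

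Within the receptors the pattern varied by gene. Htr5a, a serotonin receptor coupled to inhibitory G proteins, was at 18.5, 8.41 and 6.4 CPM in SmoA1 sham and 55.4, 45.1 and 27.5 CPM after 1 Gy. Npy1r was at 11.4, 24 and 7.68 and then 45.4, 28.5 and 28.9 CPM, and its BL6 sham libraries at 42.5, 48.1 and 39.1 CPM overlapped the irradiated tumours. Htr2c, abundant in choroid plexus, was at 7.13, 8.41 and 5.12 CPM in SmoA1 sham and 2.84, 49.8 and 33.1 CPM after 1 Gy, so library 1 was lower than every sham library while libraries 2 and 3 were above them. Cckbr had no read in any SmoA1 sham library and was at 7.1, 3.56 and 19.3 CPM after 1 Gy. Hcrtr1, which senses orexins released by hypothalamic neurons, was at 4.26, 10.7 and 23.4 CPM after 1 Gy, and its library 1 lay within the sham range of 2.85, 4.81 and 3.84 CPM. Hcrtr2 was clear of its sham libraries throughout, at 5.7, 7.21 and 1.28 CPM against 27, 21.4 and 31.7 CPM.

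Solute carriers, which move ions, sugars and amino acids across membranes, gave the most members by number, 18 of 292. Their summed level was 785, 760 and 729 CPM in BL6 sham, 170, 157 and 110 CPM in SmoA1 sham and 619, 592 and 373 CPM in SmoA1 1 Gy. All 3 irradiated libraries lay above every sham library for 16 of the 18 genes, beside the same 223 of 321 and 9.25%, in values the rule used. Olfactory and vomeronasal receptor genes, which serve smell in the nose, contributed 8 of 15, at 278, 203 and 195 CPM in BL6 sham, 44.2, 32.5 and 32.0 CPM in SmoA1 sham and 172, 128 and 85.4 CPM after 1 Gy. Such receptors come from large families of near copies, so the split of reads among them is uncertain.

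Voltage-gated and related potassium channels, which set the resting potential and end the action potential, gave 6 of 73 members, Kcna4, Kcnf1, Kcnh3, Kcnj5, Kcns3 and Kcnv2. Their summed level was 35.7, 56.5 and 41.0 CPM in SmoA1 sham and 128, 129 and 102 CPM after 1 Gy, still below the 244, 261 and 248 CPM of BL6 sham. Serine proteases and their inhibitors, counted together, gave 6 of 29 members, cadherins 6 of 87 and cytochrome P450 genes 4 of 26. Zinc finger genes, a large family of transcription factors, gave 3 of 354, and adhesion receptors coupled to G proteins, ABC transporters and calcium channels gave none.

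Genes of cilia and flagella gave 8 of 71, Cfap206, Cfap45, Cfap65, Drc7, Rsph4a, Spag6l, Spef2 and Ttll6. Their summed level was 476, 298 and 443 CPM in BL6 sham, 32.8, 52.9 and 38.4 CPM in SmoA1 sham and 80.9, 236 and 129 CPM after 1 Gy, with irradiated library 2 the highest by far. In irradiated BL6 they were at 477, 455 and 99.6 CPM, and library 4 lay below every other BL6 library.

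Members on the marker lists are given by name only. The lists are short, some are not of a cell type, and Gad1, Slc6a5, Opalin and Prlr on them were left out of the set by name. Nothing is therefore read from the number of members on them. On the 27 marker lists stood 13 members. Pax2, a transcription factor of young cerebellar interneurons, was at 62, 55.4 and 50.9 CPM in BL6 sham, 12.8, 19.2 and 12.8 CPM in SmoA1 sham and 51.1, 46.3 and 11 CPM after 1 Gy, with irradiated library 3 below all sham libraries. Lmx1a, a transcription factor of the rhombic lip and of unipolar brush cells, was at 0, 2.4 and 5.12 and then 9.94, 23.7 and 12.4 CPM. Aspa, the oligodendrocyte enzyme that cleaves N-acetylaspartate, was at 9.98, 24 and 16.6 and then 29.8, 53.4 and 23.4 CPM, and its irradiated library 3 lay below the highest sham library.

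Hcrtr1 and Hcrtr2, given among the receptors, stand on the list of cholinergic and monoamine neurons of the hindbrain, and the other members on lists mark cells of the ventricle or of other tissues. Ccdc153, Ak7, Rsph4a and Spef2 mark ciliated cells, and their irradiated SmoA1 means were 7.44, 13.1, 8.52 and 31.9 CPM. Slc4a5 is a bicarbonate transporter of choroid plexus, Slc4a1 the anion exchanger of red cells, Arr3 the arrestin of cones and Sycp1 a protein of meiotic chromosomes. Slc4a1 was at 2.85, 2.4 and 5.12 CPM in SmoA1 sham and 17, 24.9 and 16.5 CPM after 1 Gy, and Arr3 at 8.56, 10.8 and 2.56 and then 17, 20.2 and 24.8 CPM, both with no overlap. Sycp1 was at 14.3, 12 and 2.56 and then 22.7, 26.1 and 11 CPM, and irradiated library 3 fell within its sham range.

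Several lists of cerebellar cell markers, read without the members, also held genes called lower in SmoA1 sham, beside 9.4% of all genes. Of 13 interneuron markers tested, 6 were lower in SmoA1 sham than in BL6 sham, namely Tfap2b, Gad2, Gad1, Slc32a1, Kit and Slc6a5. After 1 Gy in SmoA1, 2 were higher, beside 1.98% of all genes. These were Gad1 and Slc6a5, which are among the genes left out of the set by name. The summed level of the interneuron markers was 1031 to 1139 CPM in BL6 sham, 706 to 744 in SmoA1 sham and 824 to 1038 in SmoA1 1 Gy. Purkinje markers had 7 of 13 lower and 1, Calb1, higher after 1 Gy, with summed levels of 1197 to 1357, 890 to 965 and 899 to 1285 CPM. Mature granule neuron markers had 10 of 15 lower and 1, Chn2, higher after 1 Gy, and oligodendrocyte markers had 5 of 14 lower, 1 higher and 1, Opalin, higher after 1 Gy. Opalin, which is also among the 5 lower, was left out of the set by name too. By contrast, astrocyte and Bergmann glia markers had 1 of 14 lower, Gdf10, and 1 higher, Sox9, and deep nuclei markers had 0 of 6 lower and 1 higher, Slc17a6. No marker of the first 4 lists was at 0 in any SmoA1 library. Their part in the levels of the 321 genes was not tested.

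In the other direction, granule progenitor markers such as Atoh1 and Gli1 had 9 of 15 higher in SmoA1 sham than in BL6 sham, and proliferation genes such as Mki67 had 13 of 15 higher, against 7.07% of all genes. After 1 Gy in SmoA1, 1 gene of each list was lower, Sox11 and Mcm5, against 0.192% of all genes. The progenitor sum was 1212 to 1461 CPM in SmoA1 sham and 1045 to 1178 CPM after 1 Gy. Of 18 genes of NF-kB and inflammation tested, 6 were higher after 1 Gy in SmoA1, against 1.98% of all genes, among them Sele and Vcam1, and none of this list is a member.

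Irradiated SmoA1 tumour was then set against irradiated BL6 cerebellum, which asks how far the 321 genes remained below normal tissue. The SmoA1 1 Gy libraries were used by the rule and the BL6 1 Gy libraries were not, so the counts are given as description. The mean in SmoA1 was a median 0.595 of the mean in BL6, with 30 genes above 1, 74 at 0.8 or more and 111 under 0.5. With edgeR's quasi-likelihood test, 74 of 294 genes tested were lower at an adjusted p under 0.05, against 2.58% of all genes, and none was higher. DESeq2 called 45, and edgeR called 42 without BL6 1 Gy library 3 and 116 with the library number as a block. Over the genes tested the median log2 fold change was -0.66, beside -0.01 over all genes. The 74 genes had a median ratio of 0.348, from 0.102 to 0.629.

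The 5 genes of smallest p-value included a hair cell myosin and a kidney slit protein. Myo15, the myosin of inner ear stereocilia, was at 22.7, 27.3 and 26.2 CPM in irradiated SmoA1 and 89.1, 128 and 81.3 CPM in irradiated BL6, a log2 fold change of -1.92 (SE 0.23). Map3k21, a kinase of the mixed lineage group, was at 19.9, 16.6 and 12.4 against 84.3, 74 and 63.1 CPM, a log2 fold change of -2.15 (SE 0.25). Neither gene's groups came near each other. Kcnv2, a modifying subunit of potassium channels, was at 7.1, 9.49 and 1.38 against 66.8, 40.7 and 40.7 CPM (log2 fold change -2.96, SE 0.40). Nphs1, nephrin of the kidney filter, was at 8.52, 8.3 and 2.75 against 46.1, 40.7 and 40.7 CPM (log2 fold change -2.64, SE 0.37). Pdzph1 was at 7.1, 5.93 and 0 against 39.8, 44.4 and 43.5 CPM (log2 fold change -3.21, SE 0.45). For all 5, the irradiated tumour values rest on 0 to 23 reads a library. Of the potassium channel members, 4 of 6 were in the lower group, and of the solute carriers 1 of 17 tested.

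**Figure D3:**
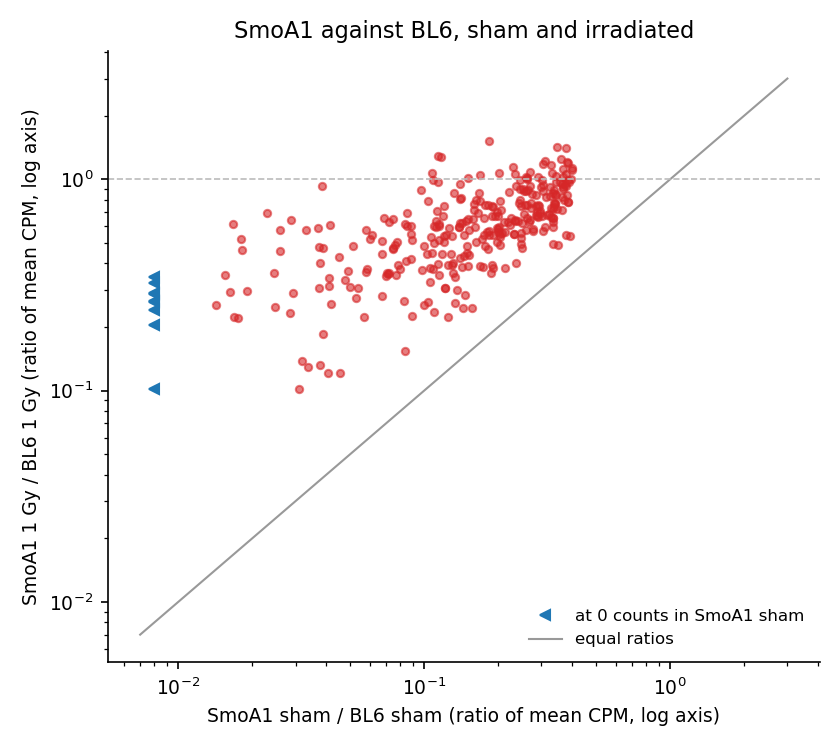
Ratio of mean CPM in SmoA1 to that in BL6 for each of the 321 genes, after sham (horizontal) and after 1 Gy (vertical), both on log axes, with equal ratios on the grey diagonal and the 9 genes without SmoA1 sham reads at the left edge. Points above the diagonal are nearer to BL6 after 1 Gy than after sham. The median is 0.163 after sham and 0.595 after 1 Gy, and 30 genes lie above the dashed line at 1.

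Some members met the rule mainly through 1 library. For 15 genes, over 60% of the summed SmoA1 1 Gy CPM came from library 2, and 10 genes had such a share in library 3 and 3 in library 1. Tmem72 was at 9.94, 102 and 9.64 CPM in irradiated SmoA1, 2.85, 10.8 and 24.3 CPM in SmoA1 sham, 147, 127 and 156 CPM in BL6 sham and 139.9, 144 and 7.01 CPM in irradiated BL6. It was thus high in 1 of 3 irradiated tumours and low in 1 of 3 irradiated normal cerebella. Slc4a5, a sodium bicarbonate transporter of choroid plexus, was at 27, 72.4 and 19.3 CPM in irradiated SmoA1 and 65.2, 74 and 37.9 CPM in irradiated BL6. The others were Cfap65, Ttc21a, Dsg2, Tc2n, Tcaf3, Sp7, Ttll6, Cdhr3, Oca2, Slc30a2, Gm853, Krt8 and Cyp2e1.

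Together the 15 genes stood at 1.4, 6.97 and 1.53 CPM per kb of exon in irradiated SmoA1 and at 0.64, 1.13 and 0.99 CPM per kb in SmoA1 sham. In irradiated BL6 they stood at 10.2, 9.71 and 2.68 CPM per kb. For 9 of the 15, BL6 1 Gy library 4 was under 0.25 of the mean of the other irradiated BL6 libraries, which held for 29 of all 321 genes. Among the 13151 protein-coding genes at 20 CPM or more in BL6 sham, it held for only 45 that are not members. Sums of choroid plexus and ependymal markers also varied between these libraries. The choroid plexus list, 9 genes without Slc4a5 but with Prlr, summed to 275, 343 and 280 CPM in irradiated SmoA1 and to 503, 416 and 222 CPM in irradiated BL6, with 231 to 275 CPM in SmoA1 sham. Its genes did not all follow the sum, since Ttr was at 9.94, 24.9 and 9.64 CPM in irradiated SmoA1, Kl at 61.1, 51.0 and 71.6 CPM and Folr1 at 15.6, 14.2 and 16.5 CPM. The ependymal list, 10 genes without its members, summed to 302, 420 and 379 CPM and to 609, 596 and 339 CPM, with none of either list at 0 in irradiated SmoA1. The part of these cells in the result was not tested. Without these 15 genes, the other 306 stood at 1.79, 1.89 and 1.4 CPM per kb in SmoA1 sham and 5.76, 5.72 and 4.26 CPM per kb after 1 Gy.

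**Figure D4:**
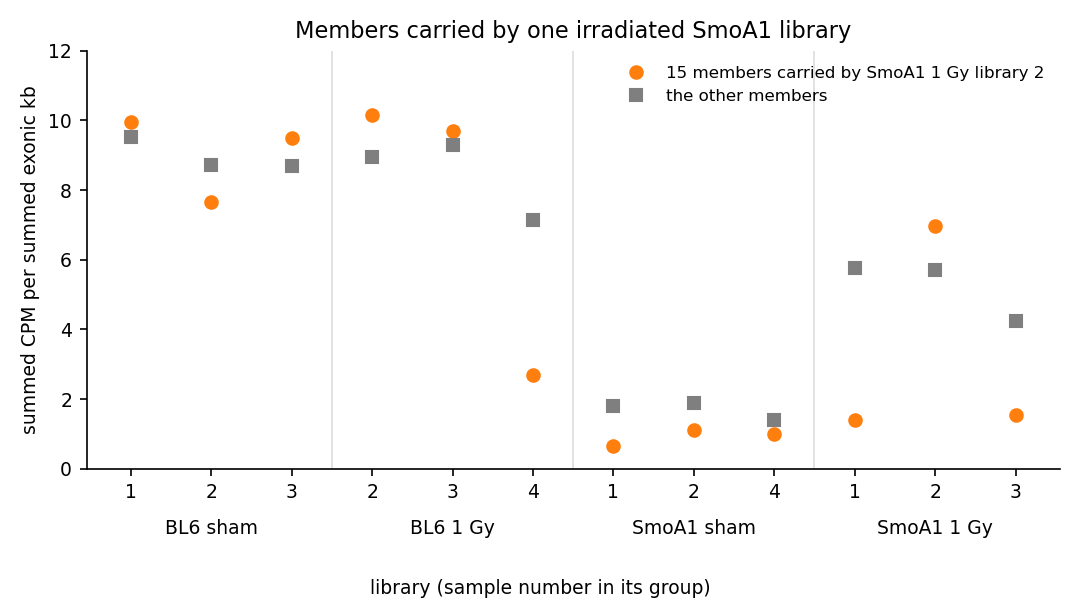
Summed CPM per summed kilobase of exon in the 12 BL6 and SmoA1 libraries for the 15 genes with over 60% of their SmoA1 1 Gy CPM in library 2 (circles) and the other 306 genes (squares). The circles stand at 6.97 in that library and at 1.4 and 1.53 in the other irradiated tumours, and at 2.68 in BL6 1 Gy library 4, while the squares stand at 4.26 to 5.76 in all 3 irradiated tumours.

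Single sham libraries stood apart for a few more genes, which were picked out after their values were seen. Alpk2, a kinase of heart and skeletal muscle, was at 7.13, 2.4 and 48.7 CPM in SmoA1 sham. It was high in library 4, where the list of 12 muscle genes summed to 1508 CPM, beside 712 and 685 CPM in libraries 1 and 2. Glra3, a glycine receptor subunit, was at 21.3, 87.5 and 23.8 CPM in BL6 sham, Arhgap36 at 5.31, 54 and 5.09 CPM and Dgkk, a diacylglycerol kinase, at 8.86, 65.6 and 3.4 CPM. All 3 were high in library 2, where the list of 15 hindbrain and spinal Hox genes summed to 306 CPM, beside 35.4 and 15.3 CPM in libraries 1 and 3. For Arhgap36 and Dgkk the other BL6 sham libraries lay below the 20 CPM limit, and the part of muscle or hindbrain tissue was not tested.

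Normal cerebellum showed no call among the members after 1 Gy. With edgeR's quasi-likelihood test 0 of 319 genes tested passed an adjusted p of 0.05, against 0.0126% of all genes, and DESeq2 also called 0. At an unadjusted p under 0.05 there were 14 of the 319, beside 634 of all 15918 genes tested. The median log2 fold change was -0.09, with 123 of 319 positive, beside -0.0029 over all genes. The BL6 sham libraries were used by the rule, which asked for high values there, so these values are not independent of it. Cyp2j12, a cytochrome P450 epoxygenase, had the smallest p-value, at 40.7, 39.4 and 27.2 CPM after sham and 14.3, 18.5 and 12.6 CPM after 1 Gy, a log2 fold change of -1.25 (SE 0.32, adjusted p = 0.949). Without BL6 1 Gy library 4 the median was 0.06, with 182 of 321 positive.

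Ptc tumours gave the only comparison of 1 Gy with sham in libraries that the rule did not use. No member was called there: with edgeR's quasi-likelihood test 0 of 194 genes tested passed an adjusted p of 0.05, against 0% of all 19571 genes, and the smallest adjusted p was 0.685. At an unadjusted p under 0.05 there were 36 of the 194, beside 1421 of all 19571 genes. DESeq2 called 2 of the 194 higher, Car12 and Dnajb13, and 7 lower, beside 211 higher and 110 lower over all genes. Every irradiated Ptc library lay below every sham library for 5 of the 194, against 5.92% of all genes, and above for 1, against 6.81%. The median log2 fold change over the 194 was -1.25, with 50 positive, beside -0.00047 over all genes.

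The median in Ptc turned on sham library 2. Summed over the 321 genes, the sham libraries held 70.2, 1375 and 388 CPM and the irradiated ones 538, 195 and 167 CPM. Sham library 2 was the highest of the 6 for 219 genes, and 2 genes, Sv2c at 138 CPM and Rasal1 at 137 CPM, made up much of irradiated library 1. Without sham library 2 the median log2 fold change was 0.13, with 105 of 193 positive, and 6 genes had an unadjusted p under 0.05. Without both libraries numbered 2 it was 0.01, with 86 of 171 positive.

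Markers of mature neurons were also highest in that library. Purkinje markers summed to 526, 8884 and 2496 CPM in Ptc sham and 377, 553 and 717 CPM after 1 Gy, and interneuron markers to 231, 2269 and 761 CPM and 137, 917 and 361 CPM. Mature granule neuron markers summed to 2949, 11431 and 5399 CPM and to 9107, 992 and 2666 CPM. Granule progenitor markers were lowest there, at 8894, 1870 and 6337 CPM in sham. The part of normal tissue in these libraries was not tested.

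Most single members were low in Ptc tumours. Sv2c was at 3.74, 116 and 18.1 CPM in Ptc sham and 138, 10.3 and 14.9 CPM after 1 Gy, high in 1 library of each group. Cdh1 was at 0.408, 11.5 and 4.94 CPM and then 0.258, 1.01 and 0.469 CPM, and Slc26a7 at 0.144, 3.64 and 2.71 CPM and then 0.193, 0.577 and 0.147 CPM. Car12, a membrane carbonic anhydrase that DESeq2 called, was at 0.096, 0.721 and 0.463 CPM in sham and 1.65, 2.77 and 3.63 CPM after 1 Gy, with no overlap. Dnajb13, a cochaperone of the sperm flagellum, was at 0.168, 0.156 and 0.243 CPM and then 0.193, 6.92 and 1.41 CPM, where irradiated library 1 lay within the sham range. All told, 218 of the 321 genes (67.9%) had a Ptc sham mean under 1 CPM, beside 65.7% of the 172 genes lost and not regained and 3.88% of the 12646 protein-coding genes at 20 CPM or more in BL6 sham that were not lost.

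**Figure D5:**
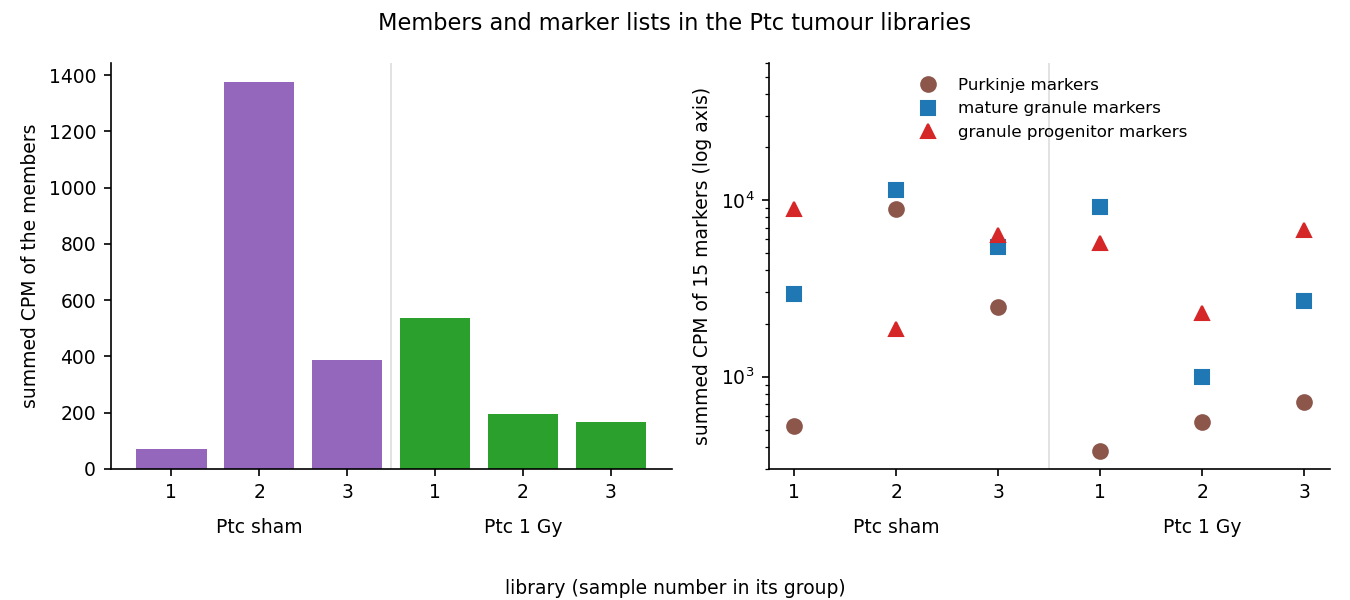
Summed CPM of the 321 genes (bars, left) and of 3 lists of 15 markers each (points, right, log axis) in the 6 Ptc libraries. Sham library 2 holds 1375 CPM of the 321 genes, 8884 CPM of Purkinje markers and 1870 CPM of granule progenitor markers, beside 70.2, 526 and 8894 CPM in sham library 1.

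Some genes lay just inside or outside the limits of the rule. Spata17 and Aldoart1 met the 20 CPM limit at 20.1 CPM each, and Fam83f at 19.9 and Iqca at 19.7 CPM missed it. Rgs6 and Rtl1 met the 0.4 limit with ratios of 0.399 and 0.397, while Baiap3 and Sec14l5 missed it with 0.4003 and 0.405. Oprk1 and Acan met the 2-fold limit at 2.00 and 2.01, and Fhad1 and Crb2 missed it at 1.998 and 1.99. Another 172 genes were lost and not regained, with a median SmoA1 1 Gy mean 1.60 times the sham mean. Both kinds together are 493 genes, of which 484 had any SmoA1 sham read. Over those 484 the median was 2.36, and 473 were above 1.

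The 9 genes without a read in the 3 SmoA1 sham libraries were Glra3, Pdzph1, Cckbr, Ccdc180, Dspp, Klhl14, Evx2, Rd3l and Cyp2e1. Against a floor of 3 reads over the group, 1.3 CPM, they were at least 2.33-fold (Klhl14) to at least 7.70-fold (Cckbr) higher after 1 Gy. Such bounds cover counting error only. Cckbr was at 29.3 ± 4.74 CPM in BL6 sham and 9.98 ± 8.25 CPM after 1 Gy in SmoA1 (SD, n = 3).

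A few members lie side by side on a chromosome, within 100000 bases of each other, in 19 pairs. Msln and Mslnl, mesothelin and its neighbour, are 283 bases apart, Nphs1 and Kirrel2, both of the kidney slit, 625 bases apart, and the cadherins Cdh1 and Cdh3 46054 bases apart. The keratins Krt25, Krt26 and Krt28 form a row, as do the olfactory receptors Olfr55 and Olfr1564. Reads on both strands were counted, so strand does not separate reads of neighbouring genes. Reads that were ambiguous between genes were left out, and these pairs lie at least 283 bases apart. The members were also somewhat short, with a median of 4054 exonic bases, beside 4290 for the genes lost and not regained and 4869 for protein-coding genes at 20 CPM or more in BL6 sham that were not lost.

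The 4 files of each number allow a check of counting noise within the same samples. Chosen on the first 2 files alone, 332 genes met the rule with a median ratio of 3.24 of SmoA1 1 Gy to sham. In the other files the same genes had a median ratio of 2.96, 326 were above 1, and 210 met the whole rule. The labels title the 4 files biol rep 1 to 4, but they share a sample number and were taken here as 1 sample. On that reading the check says nothing about other animals.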

How the data were processed

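RNA of bulk cerebellum and cerebellar tumour was extracted with an RNeasy kit and depleted of ribosomal RNA, per the labels' protocols. The authors deposited raw read counts per gene with no header, in 54 files of 53379 gene identifiers. The submitters' processing notes name mm10 and Cell Ranger 5.0.1, whose output has another layout, and the aligner and annotation are not given in the sources used here. Identifiers were matched to GENCODE M21 (53274 of 53379). Files that share a sample number were summed, which gave 18 libraries, and the unstranded counts were used. CPM divides by the sum of the gene rows. Rows for unmapped, multimapping, unassigned and ambiguous reads were left out.

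Differences were tested with edgeR 4.0.16 in R 4.3.3 (filterByExpr, TMM, glmQLFit, glmQLFTest) over all genes. Each contrast used its 6 libraries, with Benjamini-Hochberg adjustment and a call at 0.05. The test was also run on simulated counts with 1 fixed spread, not fitted to these libraries. That check does not cover the wide spread between the Ptc libraries. DESeq2 1.42.0 was an alternative. Tables and figures were made with Python 3.11.15, pandas 2.3.3 and matplotlib 3.10.9. The members, the 27 marker lists and the 24 families were chosen with earlier results of these data known. Genes named are the 15 called in both selecting contrasts with the smallest p-values, the 5 highest in BL6 sham, members on marker lists or in families of at least 3 members, the 5 of smallest p in the contrasts with BL6 1 Gy or in Ptc where called, and the 2 genes nearest each side of a threshold. Promoters are from RefSeq (GRCm38.p6).
Genes named for their share in 1 library, for 0 reads in SmoA1 sham, for a DESeq2 call in Ptc or for a neighbouring member were chosen after their values were seen. Results for 2 withheld genes are not reported here.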

Additional observations from a re-analysis of the deposited data

How the results depend on the processing

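The number of genes that met the rule was 526 with a minimum of 10 CPM in BL6 sham, 147 with 40 CPM, 175 with a 3-fold limit, 210 in both pairs of files, and 288 to 415 with 1 library left out, the most without SmoA1 sham library 2. The strand with the larger total gave 259 genes, of which 156 are members. Of members, DESeq2 called 2 higher and 7 lower of 194 tested in Ptc, and 45 lower of 294 in SmoA1 1 Gy against BL6 1 Gy. There edgeR called 74 of 294, and 36 of 151 on the strand with the larger total. On that strand all 156 members tested were called lower in SmoA1 sham, and 31 of 84 tested were called higher after 1 Gy in SmoA1. The latter count was 83 of 164 tested in the main fit and became 37 of 164 at an adjusted p under 0.01. It was 183 of 321 tested without a low-count filter and 198 of 321 in a fit of 12 libraries.

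With 1 library left out it was 32 to 101, lowest without SmoA1 1 Gy library 2, beside 280 to 309 for the loss and 42 to 99 for SmoA1 1 Gy against BL6 1 Gy, lowest without BL6 1 Gy library 3. It was 0 to 0 in BL6 and in Ptc in each direction. In a fit with 1 library left out, the spread rests on fewer libraries.

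A replicate block gave 116 lower in SmoA1 1 Gy against BL6 1 Gy, 280 for the loss, 89 higher after 1 Gy in SmoA1, 0 in Ptc and 1 in BL6, Frmpd2, with a log2 fold change of 1.82 (SE 0.32, edgeR adjusted p = 0.01274). Deviations of same-numbered libraries correlated at -0.041 to 0.19. With so few pairs of libraries, these values cannot settle whether same-numbered samples share more than a number. Causes were not tested. Depth limits the low members most, since 1 read was worth 1.19 to 1.85 CPM in BL6 and SmoA1.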
